A study of Mus musculus with 9 samples.

Results

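The carboxylesterases, alcohol and aldehyde dehydrogenases, aldo-keto reductases, epoxide hydrolases, flavin monooxygenases, aldehyde oxidases and carbonyl reductases of the liver were examined in fructose-fed rats. Members were all genes of the count table whose symbol begins with Ces, Adh, Aldh, Akr, Ephx, Fmo, Aox or Cbr followed by a digit, apart from the genes not reported here. The rule uses symbols and no level, although these families were proposed with earlier results of the same data known. This gave 59 of the 19686 genes listed, namely 10 carboxylesterases, 3 alcohol dehydrogenases, 17 aldehyde dehydrogenases, 15 aldo-keto reductases, 3 epoxide hydrolases, 5 flavin monooxygenases, 4 aldehyde oxidases and 2 carbonyl reductases. Liver RNA was sequenced from 9 male Wistar rats, 3 per group, without any named genetic change. The control group drank purified water and was given saline by gavage. The model group drank water with 15% fructose and was given saline. The HME group drank the same fructose solution and was given the 50% methanol extract of Danggui-Shaoyao-San, a mixture of 6 herbs, at 1.8 g/kg. Treatment lasted 8 weeks in all groups, and every rat was fasted for 12 h and anaesthetised with chloral hydrate before the liver was taken. In the sample labels the treated rats carry the name DSS, with no extract named. The paper took only the HME extract to transcriptomics, so the group is called HME here. There was no group given the extract without fructose, so the HME group differs from the control group in both the drink and the extract.

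These enzymes carry out the part of hepatic metabolism that lies beside the cytochromes P450. Carboxylesterases hydrolyse esters and amides of drugs and of lipids such as acylglycerols and cholesteryl esters, in the lumen of the endoplasmic reticulum of hepatocytes. Alcohol dehydrogenases oxidise alcohols and retinol to aldehydes, aldehyde dehydrogenases and aldehyde oxidases oxidise aldehydes to acids, and aldo-keto and carbonyl reductases carry out reduction of carbonyl groups, steroids among their substrates. Epoxide hydrolases open epoxides of xenobiotics and fatty acids by adding water, and flavin monooxygenases oxidise nitrogen and sulphur atoms. Many of these genes are known targets of the nuclear receptors CAR, PXR, PPAR alpha and HNF4 alpha, and several lie in clusters of near-identical copies in rodents.

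Total counts per library ranged from 14345819 to 26837227, and the 59 members took between 1.37% and 1.85% of them. A level is stated as CPM, on library sizes normalised by the TMM method, and levels are compared between groups of rats and not between genes, since CPM does not account for gene length. The rats of a group differed by far more than counting error, with a chi-square per gene from 19.6 to 70.8 for pairs of rats, where counting error alone gives about 1. Among the 45 members with a mean count of at least 50, the median coefficient of variation was 17.4% in the control, 18.3% in the model and 11.5% in the HME group. Control rat 1 had the lowest level of the 9 rats in 15 of these 45 members (33.3%), against 12.1% of all genes with such counts, and model rat 2 in 11 (24.4%), against 9.63%. Both also had the highest summed leukocyte and Kupffer cell markers of their groups, at 695 CPM in control rat 1 (307 and 425 in the other controls) and 506 in model rat 2 (333 and 234 in the other model rats). The 8 hepatocyte markers were all detected in every rat, the lowest value being 254 CPM for Tat in model rat 3. Hnf4a, Cps1 and Tat were lower in every model rat than in every control rat (log2 fold changes of -0.41, -0.76 and -0.79, FDR 0.371, 0.123 and 0.318), and the other 5 overlapped. The list, most of it Alb, summed to between 116059 and 142750 CPM in control, 136842 and 185686 in model and 141048 and 176392 in HME rats. Summed markers over the 9 rats ran from 319.8 to 1014 CPM for red blood cells, 103 to 297 for endothelial cells, 287 to 441 for stellate cells and 17.1 to 36.0 for bile duct cells. Those of the pancreas ran from 13.0 to 28.1 CPM, all but 1 read of it from Cela1, and those of the intestine, kidney and lung reached at most 1.33, 5.52 and 0.683 CPM. The part of the cell makeup in the results was not tested. In whole liver, fewer cells of a type and less RNA per cell cannot be told apart.

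Each comparison was fitted on its 6 libraries over all genes with edgeR's quasi-likelihood test, with calls at an FDR no higher than 0.01 where the log2 fold change was 0.5 or more in size (the stricter rule), or no higher than 0.05 with that same size (the looser rule). Of the 59 members, 49 had enough counts to be tested in all 3 comparisons, 4 (Akr1b8, Akr1c12l1, Aldh1a2 and Cbr3) in 1 or 2 of them, and 6 (Akr1b7, Aldh18a1, Aldh1a7, Aox4, Ephx3 and Fmo6) in none. Akr1b7, an aldo-keto reductase best known from the adrenal gland and genital tract, stood at 6.46 CPM in model rat 3 and at no more than 0.468 CPM in any other rat. Aldh1a7 reached 2.08 CPM in control rat 2, and the other 4 untested genes were at most at 0.332 CPM.

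The question of the comparison of the model with the control group was what fructose did to these genes. No member passed the stricter rule, which 0.0801% of the 12486 genes tested passed. At the looser rule 1 of 50 members passed, the aldehyde oxidase Aox3, which was lower in the model group, against 0.601% of all genes. With an unadjusted p under 0.05 there were 11 members (22%), 3 higher and 8 lower in the model group, against 13.2% of all genes. The 3 model rats lay above the 3 control rats in 7 members (14%, against 11.2% of all genes) and below them in 8 (16%, against 9.86%). DESeq2 on the same genes called 3 members (6%, against 2.05% of all genes), namely Aox3 and Aldh1b1 lower and Ephx2 higher in the model group. The median log2 fold change of the members was near 0 (0.018), as that of all genes was.

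In the comparison of the HME with the model group, which asks what the extract did in fructose-fed rats, 0 of 52 members passed the stricter rule, against 0.136% of 12502 genes, and 12 members had an unadjusted p under 0.05 (23.1%, against 8.02% of all genes), 9 of them higher in the HME group. The looser rule was passed by Ces2c alone, which was higher in the HME group, against 0.456% of all genes. All 3 HME rats lay above all 3 model rats in 12 members (23.1%, against 6.22% of all genes) and below them in 1 member, Adh1 (1.92%, against 7.69%). DESeq2 called 3 members (5.77%, against 1.18% of all genes), Ces2c, Ces2a and Aox3, each higher in the HME group. Of the 12 members without overlap, 7 were carboxylesterases and 2 were aldehyde oxidases. Among them the scarce Ces2i was separated only by 0.862 against 0.866 CPM. The median log2 fold change was 0.09 over the members and near 0 over all genes.

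The HME group was also set beside the control group, a comparison in which fructose and extract differ together. The mitochondrial aldehyde dehydrogenase Aldh1b1 passed the stricter rule and was lower in the HME group, as 1 of 51 members (1.96%), against 1.48% of 12633 genes. The looser rule added Adh1 and Ces4a, lower in the HME group, and Ephx2, Akr1c12, Ces2c and Aox1, higher, which made 7 members (13.7%, against 6.36% of all genes), 4 higher and 3 lower. With library size alone this split was 1 higher and 5 lower. With an unadjusted p under 0.05 there were 19 members (37.3%, against 24.3%), and the rats did not overlap in 14 members that were higher (27.5%, against 15.1%) and 8 that were lower (15.7%, against 14.9%) in the HME group. DESeq2 called 5 members (9.8%, against 6.09%), Aldh1b1 and Adh1 lower and Ephx2, Akr1c12 and Aox1 higher. The 3 comparisons share libraries, so their values are given side by side and not as separate evidence. Scaling by library size alone moved the median log2 fold change of all genes to -0.145 against control in the model and to -0.144 in the HME group, and then 2 members lay above and 13 below the controls in the model group, against 5.36% and 16.8% of all genes, and 6 above and 11 below in the HME group, against 7.24% and 24.3%. Between the HME and model groups the same scaling left the split at 12 above and 1 below, against 4.92% and 9.09% of all genes.

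**Figure D1:**
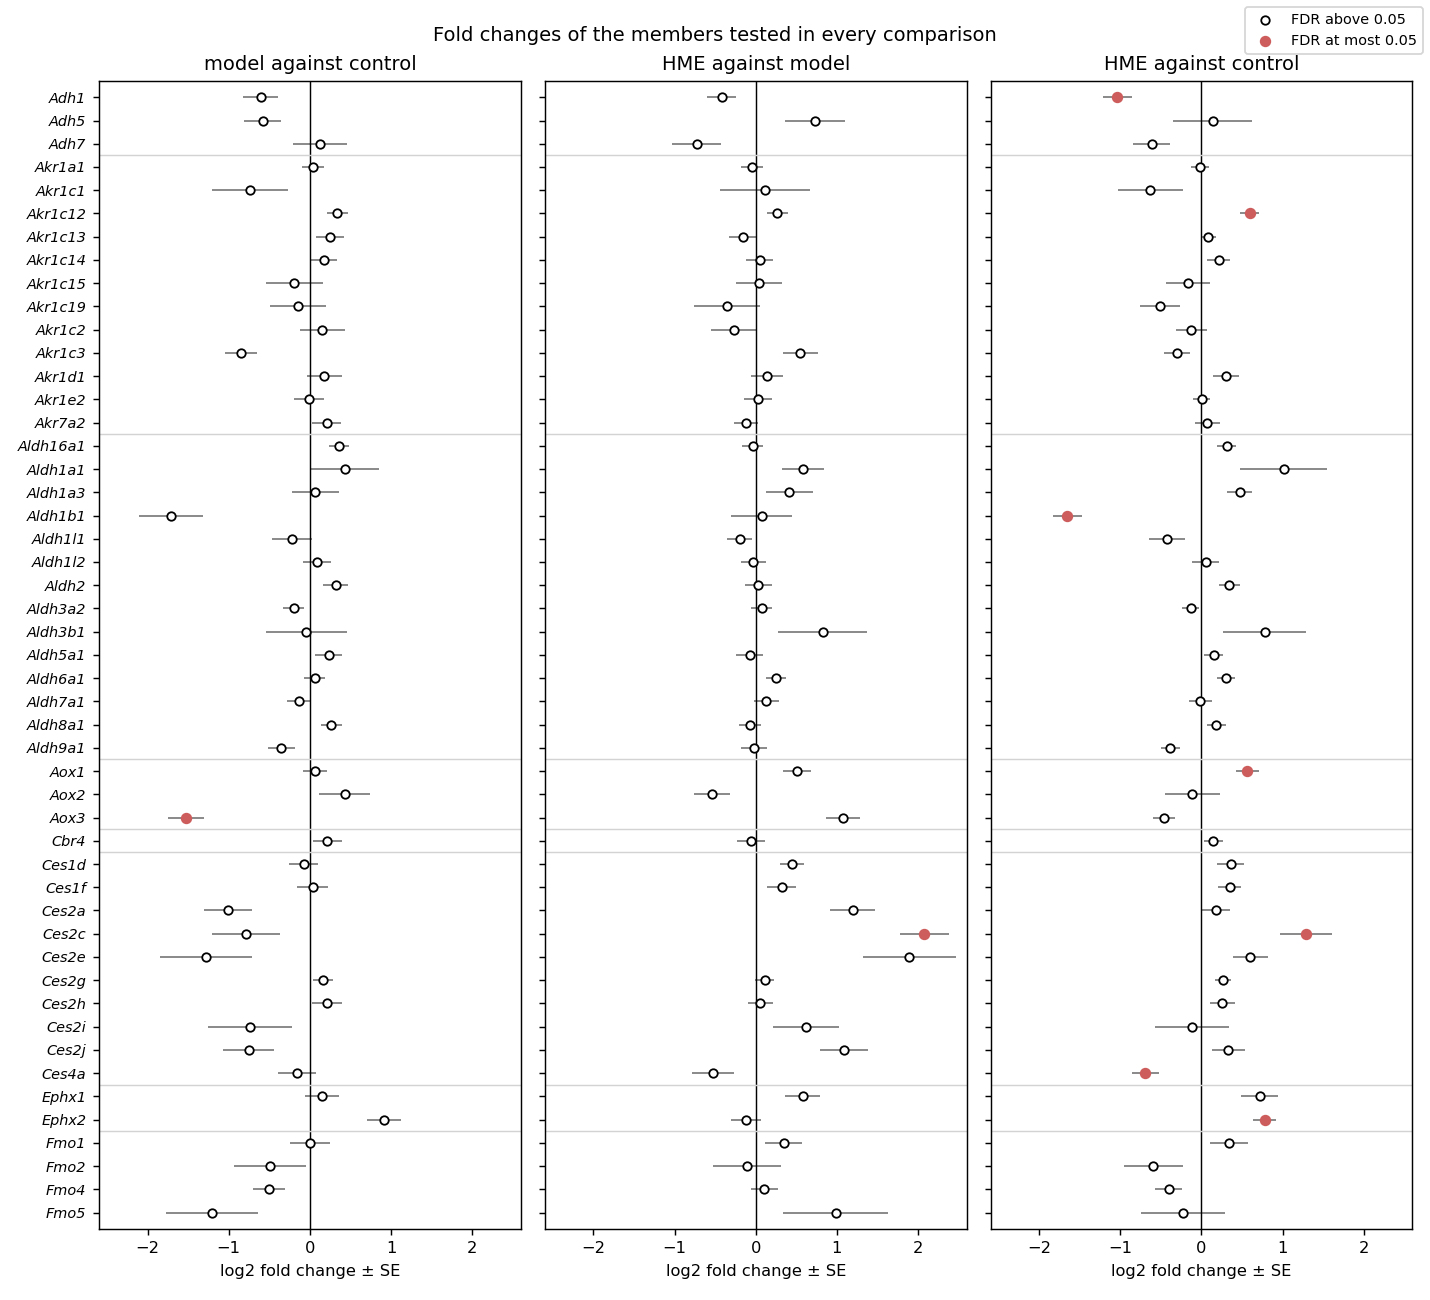
Log2 fold changes (x axis, ± SE from edgeR) of the 49 members tested in all 3 comparisons (y axis, grouped by family), with filled points for an FDR of at most 0.05. In the comparison of the HME with the model group most carboxylesterases lie to the right of 0, and the farthest right is Ces2c at 2.08. Aldh1b1 lies far to the left against control in both fructose-fed groups, at -1.71 and -1.65.

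The carboxylesterases of the Ces2 family, which act on drug esters and on acylglycerols, gave the widest differences between the fructose-fed groups. All 7 Ces2 genes had a positive log2 fold change in the HME group against the model group (median 1.09). Over all 12502 genes tested, 6267 were positive. In 6 of the 7, all but Ces2h, every HME rat lay above every model rat, against 6.22% of all genes. The margin was narrow in Ces2g and Ces2i. In the model group against control the same family had a median of -0.75, with 5 genes negative and 2 positive, and in the HME group against control a median of 0.27. Since Ces2 genes lie in a cluster of similar copies, reads can be shared between them, and the values of single copies are uncertain to that extent. The summed level of the family was 323, 485 and 385 CPM in control rats 1 to 3, 226, 181 and 352 in the model rats and 449, 619 and 488 in the HME rats. Model rat 3 lay inside the control range, and the HME rats lay above every model rat. The sums mix genes of different length and follow the copies with the highest CPM.

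Ces2e (ENSRNOG00000011635), which had the highest CPM of the family, was at 117, 183 and 136 CPM in the 3 control rats. In the model rats it was at 39.6, 20.4 and 119 CPM, so that rats 1 and 2 were far below every control and rat 3 lay just above the lowest one. In the HME rats it was at 173, 285 and 209 CPM, above all model rats and, for rats 2 and 3, above all controls. The log2 fold change was -1.28 (SE 0.565, FDR 0.384) in the model group against control, 1.90 (SE 0.575, FDR 0.404) in the HME group against the model group and 0.60 (SE 0.220, FDR 0.140) in the HME group against control. None passed a threshold. The model group carried the spread, with a coefficient of variation of 87.8%, the largest in that group among the 45 members with a mean count of at least 50, and without model replicate 3 the log2 fold change of the HME against the model group was 2.90 with an edgeR FDR of 0.0476. The other 5 fits with 1 rat left out gave an FDR from 0.356 to 0.849, and a log2 fold change as low as 1.48 without model replicate 2.

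Ces2a (ENSRNOG00000011330) followed a similar order of groups. Control livers held 109, 172 and 125 CPM, model livers 51.1, 51.5 and 99.4 CPM and HME livers 139, 179 and 143 CPM. All model rats lay below all rats of both other groups, and control and HME rats overlapped. The log2 fold change was -1.01 (SE 0.293, FDR 0.189) against control in the model group and 1.20 (SE 0.275, FDR 0.191) between the HME and model groups, a ratio of 2.29. Neither passed the looser rule with edgeR. In the comparison of the HME with the model group the FDR was 0.0320 without model replicate 3, and DESeq2 gave 0.00262 with all rats. It was from 0.307 to 0.537 in the other 5 fits with 1 rat left out, 0.2998 with library size alone and 0.119 with all 9 libraries. Ces2j (ENSRNOG00000029744) was at 10.3, 16.1 and 10.6 CPM in control, 6.71, 4.68 and 10.5 CPM in model and 13.1, 18.3 and 15.1 CPM in HME rats. As in Ces2e and unlike in Ces2a, model rat 3 reached the control range. Every HME rat was above every model rat, with a log2 fold change of 1.09 (SE 0.295, FDR 0.314).

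Ces2c (ENSRNOG00000036571) was the 1 member that rose in the HME group against the model group at the looser rule. It was scarce, with 17, 22 and 20 reads in control rats 1 to 3, 16, 10 and 9 in the model rats and 49, 54 and 47 in the HME rats. On the CPM scale these were 0.683, 1.31 and 1.33 in control, 0.688, 0.642 and 0.554 in model and 2.65, 2.91 and 2.44 in HME livers. The HME rats stood above all 6 other rats, and the model rats lay close together at or below the low end of the control range. The level in the HME group was 4.22 times that of the model group (log2 fold change 2.08 (SE 0.302, FDR 0.0360)) and 2.45 times that of the control group (1.29 (SE 0.323, FDR 0.0444)). Leaving out any 1 of the 6 rats took the FDR above 0.05 in both comparisons, to between 0.0650 and 0.201 against the model group, where the lowest value was without model replicate 2 and the highest without HME replicate 2, and to between 0.0771 and 0.122 against control, where the lowest was without HME replicate 3 and the highest without HME replicate 1. Against the model group it stayed at a log2 fold change of 2.002 or more in each of these fits. With library size alone the FDR was 0.0504 against the model group and 0.0579 against control. With all 9 libraries in one fit it was 0.0241 and 0.0555.

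The remaining Ces2 genes moved little or were scarce. Ces2g was at 34.2, 32.0 and 32.7 CPM in model and 36.7, 34.8 and 34.8 CPM in HME rats, which did not overlap although the log2 fold change was only 0.11. Ces2h was at 93.1, 71.1 and 88.6 CPM in the model and 83.2, 97.5 and 81.7 CPM in the HME group, with overlap. Ces2i stayed below 2 CPM in every rat, with 16, 7 and 14 reads in model and 16, 17 and 25 in HME rats. Its highest model rat was at 0.862 CPM and its lowest HME rat at 0.866 CPM. In the HME against the model group Ces2a, Ces2c, Ces2e and Ces2j had log2 fold changes between 1.09 and 2.08. Ces2g, Ces2h and Ces2i were at 0.11 (SE 0.118), 0.06 (SE 0.152) and 0.62 (SE 0.402). This grouping was made after the values were seen and was not tested.

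The Ces1 carboxylesterases Ces1d and Ces1f, lipid and drug ester hydrolases of the hepatocyte, differed less. Ces1f (ENSRNOG00000015438), with the higher CPM of the pair, was at 1496, 1903 and 1862 CPM in control, 2037, 1443 and 1915 CPM in model and 2451, 2027 and 2242 CPM in HME livers. Model rat 1 lay inside the HME range, and the log2 fold change was 0.32 (SE 0.181, FDR 0.748) in the HME against the model group. Ces1d was at 594, 518 and 572 CPM in model and 816, 673 and 797 CPM in HME rats, which did not overlap, with a log2 fold change of 0.45 (SE 0.146, FDR 0.449). Ces4a (ENSRNOG00000014257), a carboxylesterase of less known function, went the other way. It was at 12.8, 14.9 and 13.0 CPM in control, 13.0, 8.34 and 15.1 CPM in model and 8.61, 6.85 and 9.83 CPM in HME rats. The HME rats were below all controls, and Ces4a fell in the HME group against control at the looser rule (log2 fold change -0.69 (SE 0.165, FDR 0.0381)). The FDR was above 0.05 without any 1 of 5 of the rats, up to 0.113 without control replicate 2, and 0.0413 without HME replicate 3. It was 0.119 with all 9 libraries in one fit and 0.0158 with library size alone.

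**Figure D2:**
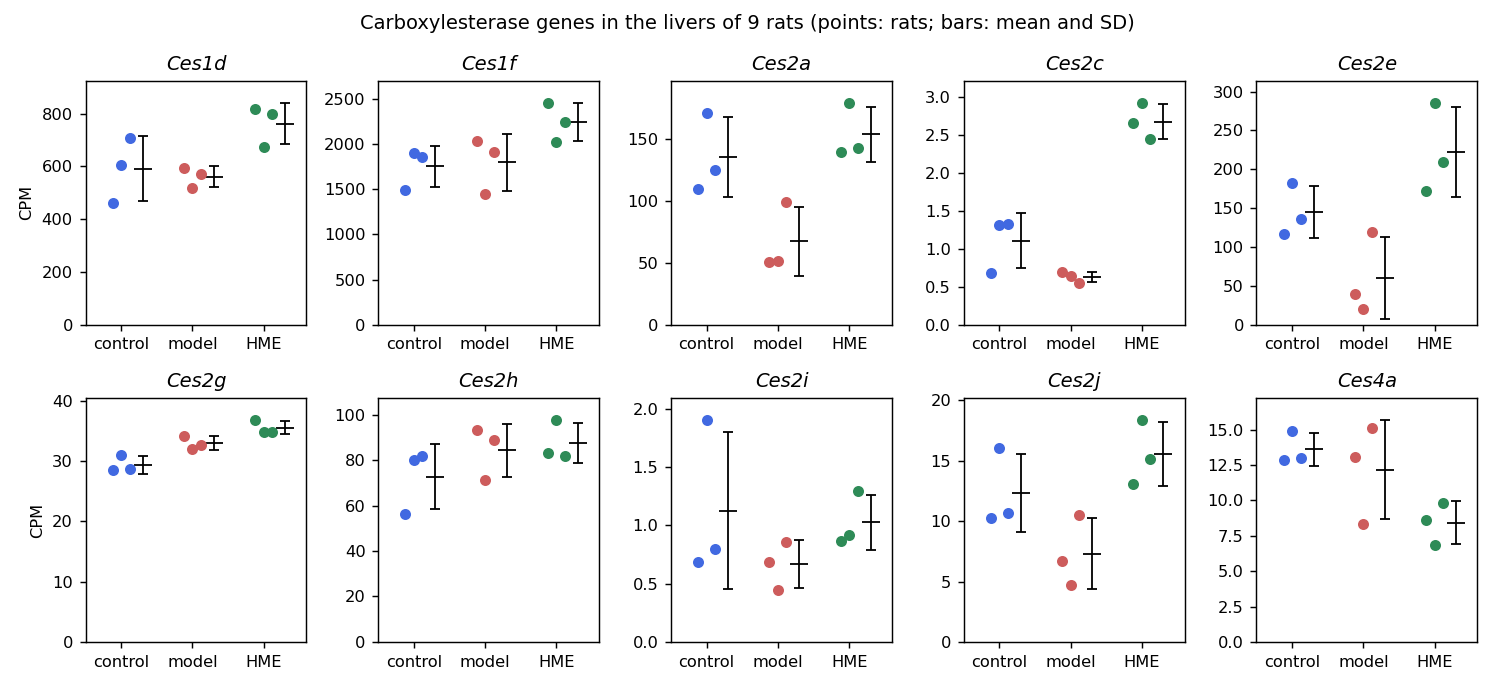
CPM (y axis, linear from 0) of the 10 carboxylesterase genes in each rat of the control, model and HME groups (x axis), with the mean and SD of each group beside the points. For Ces2a the 3 model rats lie below the other 6, for Ces2c the 3 HME rats lie above the other 6, and for Ces2e and Ces2j model rat 3 stands above model rats 1 and 2.

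Among the aldehyde oxidases, molybdenum enzymes of the cytosol that oxidise aldehydes and nitrogen heterocycles, Aox3 and Aox1 differed in pattern. Aox3 (ENSRNOG00000062125) was at 234, 174 and 197 CPM in the control rats. It was at 63.7, 53.8 and 92.4 CPM in the model rats and at 131, 158 and 152 CPM in the HME rats. The 3 groups did not overlap, with the HME rats between the other 2 groups. Aox3 fell in the model group against control at the looser rule, with a log2 fold change of -1.53 (SE 0.220, FDR 0.0292), a ratio of 0.347. In the HME group it was 2.11 times the level of model rats (log2 fold change 1.08 (SE 0.211, FDR 0.100)), which did not pass with edgeR on these 6 libraries. DESeq2 gave an FDR of 0.000520 for it, the fit of all 9 libraries 0.0427, and edgeR without model replicate 3 0.0491, while the other 5 fits with 1 rat left out gave from 0.164 to 0.355 and library size alone 0.151. Against control the HME group was lower, with a log2 fold change of -0.46 (SE 0.135, FDR 0.0743). The fall in the model group was no longer past an FDR of 0.05 without control replicate 1 (0.108), control replicate 2 (0.0929), control replicate 3 (0.104) or model replicate 1 (0.0614), while the log2 fold change stayed between -1.78 and -1.37 in those and the other alternatives.

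Aox1 (ENSRNOG00000015354) was at 552, 639 and 609 CPM in control and 598, 589.5 and 698 CPM in model livers, which overlapped. The HME livers held 929.6, 1005 and 742 CPM and lay above all 6 others on this scaling. With library size alone HME rat 3 lay below model rat 3. Aox1 rose in the HME group against control at the looser rule (log2 fold change 0.56 (SE 0.144, FDR 0.0474)), and against the model group the value was 0.51 (SE 0.168, FDR 0.454). For the first value 5 of 6 fits with 1 rat left out had an FDR above 0.05, up to 0.136 without HME replicate 1, and the fit without HME replicate 3 gave 0.0302. That call was also lost with library size alone (log2 fold change 0.44, FDR 0.100) and with all 9 libraries in one fit (FDR 0.0639). Aox2 was at between 10.2 and 29.2 CPM in all rats and overlapped between all groups. Aox4 was at most at 0.332 CPM. Near copies of Aox genes lie next to each other in rodents and can share reads.

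Adh1 (ENSRNOG00000012436), the class I alcohol dehydrogenase that carries most hepatic ethanol and retinol oxidation, was lower in the HME group. It was at 1369, 2187 and 1794 CPM in the control rats, 1409.9, 1061 and 1055 CPM in the model rats and 985, 851 and 789 CPM in the HME rats. The HME rats lay below every other rat, and model rat 1 reached the level of control rat 1. Adh1 fell in the HME group against control at the looser rule, with a log2 fold change of -1.04 (SE 0.183, FDR 0.0132), a ratio of 0.488, and each of the 6 fits with 1 rat left out kept an FDR of at most 0.05 (0.00816 to 0.0493). The step from control to model had a log2 fold change of -0.60 (SE 0.217, FDR 0.291) and that from model to HME -0.42 (SE 0.176, FDR 0.609), neither past a threshold.

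Adh5, the class III enzyme that oxidises S-hydroxymethylglutathione in formaldehyde disposal, turned on single rats. It was at 141, 268 and 170.1 CPM in control, 121, 130.1 and 137 CPM in model and 365, 141 and 134 CPM in HME livers. HME rat 1 stood above the other 8 rats, of which control rat 2 was the highest, and the remaining HME rats were close to the model rats, so that the log2 fold change against control was 0.14 with all rats and -0.50 without HME replicate 1. The model group lay below all controls, with a log2 fold change of -0.58 (SE 0.230, FDR 0.326). Adh7, the class IV enzyme of retinol oxidation, was at 23.6, 40.7 and 24.9 CPM in control, 43.0, 18.2 and 35.8 CPM in model and 19.5, 22.9 and 16.1 CPM in HME rats. The HME rats were below all controls (log2 fold change -0.62 (SE 0.229, FDR 0.148)), and model rat 2 was within the HME range while the other model rats were above it.

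Aldh1b1 (ENSRNOG00000011497), a mitochondrial aldehyde dehydrogenase that acts on acetaldehyde and retinal, had the most negative log2 fold change of the members tested in both comparisons with control. The control rats were at 23.9, 31.3 and 19.9 CPM. The model rats were at 12.1, 6.93 and 3.69 CPM and the HME rats at 7.20, 8.58 and 8.22 CPM. Both fructose-fed groups lay below all controls, and the tight HME group lay inside the range of the model group. In the HME group Aldh1b1 fell to 0.318 of the control level at the stricter rule, with a log2 fold change of -1.65 (SE 0.179, FDR 0.00155), and each fit with 1 rat left out kept an FDR under 0.01 (0.00151 to 0.00940). The fit over all 9 libraries, which shares the spread of the model group, gave a log2 fold change of -1.65 and an FDR of 0.0323. Model rats against controls had a log2 fold change of -1.71 (SE 0.391, FDR 0.117), and did not pass. The SD of the model rats was 4.23 CPM and that of the HME rats 0.712 CPM. DESeq2 gave 0.000552 for it, and edgeR without model replicate 1 gave 0.0411, while the other 5 fits with 1 rat left out gave from 0.179 to 0.303 and the fit of all 9 libraries 0.0535. Between HME and model livers the log2 fold change was 0.08 (SE 0.375, FDR 0.973).

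None of the remaining aldehyde dehydrogenases passed the looser rule. Aldh2, the main mitochondrial enzyme for acetaldehyde, was at 1019, 1071 and 1124 CPM in control, 1536, 1238 and 1242 CPM in model and 1379.9, 1200.0 and 1512 CPM in HME rats. Both fructose-fed groups lay above all controls, with log2 fold changes of 0.32 (SE 0.156, FDR 0.436) and 0.34 (SE 0.130, FDR 0.147). Aldh16a1, a member of the family without a clear enzymatic role, showed the same arrangement, with 49.1, 40.9 and 42.7 CPM in control, 57.7, 57.6 and 55.0 CPM in model and 53.8, 49.7 and 61.8 CPM in HME livers. Aldh8a1, which acts in the kynurenine branch of tryptophan breakdown, was at 545, 521 and 548 CPM in control, 688, 613 and 643 CPM in model and 620.3, 563 and 656 CPM in HME rats, with no control rat reaching a fructose-fed one. Scaled by library size alone, control rat 1 lay above model rats 1 and 3 and HME rats 1 and 2 in Aldh16a1. In Aldh8a1 it then lay above model rat 1 and every HME rat. Aldh2, Aldh16a1 and Aldh8a1 had log2 fold changes of 0.32, 0.36 and 0.27 in the model group against control, with FDR values of 0.436, 0.270 and 0.448.

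Other members of the family shared no direction. Aldh9a1, which makes a carnitine precursor, was at 368, 405 and 423 CPM in control, 252, 342 and 346 CPM in model and 312, 295 and 315 CPM in HME rats, below all controls in both fructose-fed groups, with log2 fold changes of -0.35 (SE 0.162, FDR 0.408) and -0.38 (SE 0.114, FDR 0.0771). Aldh6a1, of valine and thymine breakdown, was at 860.4, 868 and 879 CPM in model and 1020.5, 1027 and 1043 CPM in HME livers, a narrow difference (0.25 (SE 0.129, FDR 0.712)) without overlap. Aldh1l1, the cytosolic formyltetrahydrofolate dehydrogenase, was at 241, 458 and 411 CPM in control, 270.1, 319 and 364 CPM in model and 275, 293 and 260.2 CPM in HME rats. Control rat 1 stood apart from the other controls, and without control replicate 1 the log2 fold change of the HME group against control was -0.66 with an FDR of 0.0356, against -0.43 (SE 0.221, FDR 0.274) with all rats and an FDR from 0.367 to 0.596 in the other 5 fits with 1 rat left out. Aldh1a3, a retinal dehydrogenase, was at 12.2, 9.04 and 11.1 CPM in control, 7.79, 17.0 and 9.42 CPM in model and 14.7, 17.0 and 13.5 CPM in HME rats, with the HME rats above all controls (0.47 (SE 0.155, FDR 0.0997)). Aldh1a1, another retinal dehydrogenase, was at 80.5, 305 and 159 CPM in control, 216, 222 and 301 CPM in model and 345, 504 and 256 CPM in HME rats. The model rats lay within the control range, and HME rats 1 and 2 lay above every rat of the other groups while HME rat 3 lay within both their ranges. Its log2 fold change was 1.01 (SE 0.539, FDR 0.322) in the HME group against control, a ratio of 2.02, and 0.59 (SE 0.260, FDR 0.630) against the model group. Its coefficient of variation in the control group was 62.6%, the largest there among the 45 members with a mean count of at least 50. Aldh3b1, a scarce member, was at between 0.431 and 2.05 CPM in all rats, with overlap between all groups and log2 fold changes of 0.83 (SE 0.547, FDR 0.803) in the HME group against the model group and 0.78 (SE 0.510, FDR 0.387) against control.

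Akr1c12 (ENSRNOG00000033010), an aldo-keto reductase of the hydroxysteroid dehydrogenase branch, had its lowest level in control and its highest in HME livers. It was at 427, 394 and 456 CPM in control, 528, 532 and 559 CPM in model and 667, 616 and 656 CPM in HME livers. No 2 groups overlapped on this scaling, while with library size alone model rat 1 lay below control rat 1. The rise in the HME group against control passed the looser rule, with a log2 fold change of 0.60 (SE 0.116, FDR 0.0192), while the steps from control to model (0.34 (SE 0.133, FDR 0.323)) and from model to HME (0.27 (SE 0.129, FDR 0.679)) did not pass. The FDR against control was above 0.05 without control replicate 2 (0.0766) and without HME replicate 1 (0.0668). With library size alone the log2 fold change against control was 0.46 (FDR 0.0400), below the limit of 0.5, so the call was lost. Akr1c genes are a cluster of near-identical copies, so single values are uncertain.

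Akr1c3 (ENSRNOG00000017531), of the same branch, had the opposite order between control and model. It was at 14.5, 12.4 and 12.9 CPM in control, 8.95, 7.25 and 5.91 CPM in model and 10.7, 9.01 and 12.7 CPM in HME rats, with the model rats below all the others. The log2 fold change was -0.85 (SE 0.197, FDR 0.117) in the model group against control and 0.55 (SE 0.218, FDR 0.575) in the HME group against the model group. Neither passed. The first had an FDR of 0.0493 without model replicate 1 and from 0.148 to 0.356 in the other 5 fits with 1 rat left out. Akr1d1, the steroid beta-reductase of bile acid synthesis, was at 1934, 2233 and 2746 CPM in control, 2238, 2301 and 3294 CPM in model and 2626, 3149 and 2809.8 CPM in HME livers, with overlap between all groups. Akr1c14, a hydroxysteroid dehydrogenase of rat liver, was at between 830.1 and 1166 CPM in all 9 rats. Akr7a2, which reduces succinic semialdehyde and aflatoxin dialdehyde, was at 75.4, 113 and 94.4 CPM in control and 125, 105 and 97.4 CPM in model rats, and Cbr4, a mitochondrial carbonyl reductase, at 19.7, 20.9 and 22.1 CPM and 29.7, 19.9 and 22.9 CPM, both with overlap. The median log2 fold change of the aldo-keto reductases tested was 0.13, 0.04 and -0.01 in the 3 comparisons, in the order used above.

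Ephx2 (ENSRNOG00000017286), the soluble epoxide hydrolase that hydrolyses fatty acid epoxides, was higher in both fructose-fed groups. It was at 33.5, 47.4 and 44.0 CPM in the control rats, 93.7, 59.0 and 82.1 CPM in the model rats and 77.7, 70.0 and 67.5 CPM in the HME rats. No control rat reached a fructose-fed rat, and the HME rats fell inside the model range. Ephx2 rose in the HME group against control at the looser rule, 1.72 times the control level (log2 fold change 0.78 (SE 0.140, FDR 0.0143)), and the FDR was above 0.05 without HME replicate 1 alone (0.0548). Model rats against controls gave 0.91 (SE 0.210, FDR 0.116), which did not pass with edgeR on these 6 libraries. DESeq2 gave an FDR of 0.00658 for it and the edgeR fit of all 9 libraries 0.0492. Over all alternatives the FDR ran up to 0.328. Ephx1, the microsomal epoxide hydrolase of xenobiotics, differed in pattern. It was at 644, 1031 and 744 CPM in control, 793, 851 and 1045 CPM in model and 1269, 1699.9 and 1031 CPM in HME livers. The HME rats lay above all controls by a narrow margin, and 1 of them overlapped the model rats, with log2 fold changes of 0.72 (SE 0.227, FDR 0.0953) and 0.58 (SE 0.216, FDR 0.549).

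**Figure D3:**
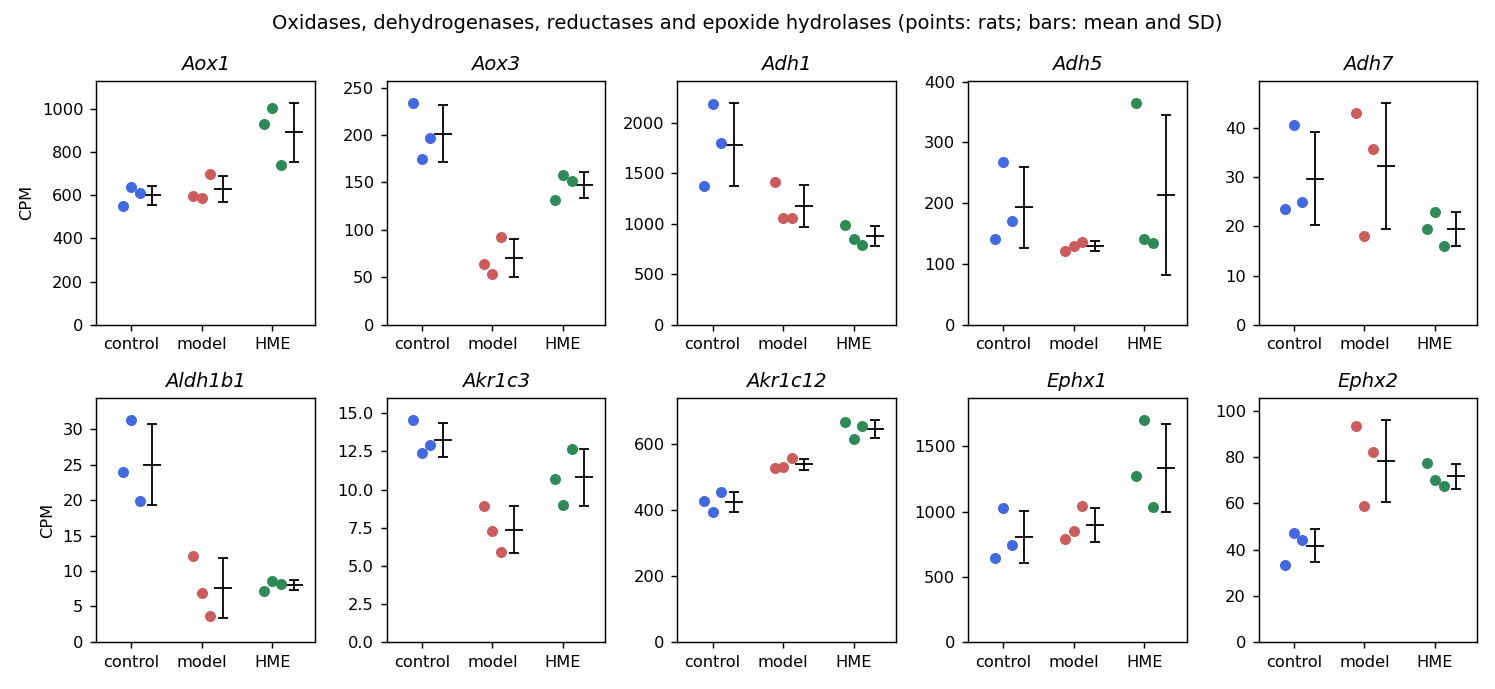
CPM (y axis, linear from 0) of 10 members of the other families in each rat of the control, model and HME groups (x axis), with the mean and SD of each group beside the points. Aox3 is highest in control, lowest in model and between them in HME rats, Aldh1b1 is low and Ephx2 high in both fructose-fed groups, and Akr1c12 is lowest in control and highest in HME rats. For Adh5, HME rat 1 stands at 364.5 CPM, apart from the other HME rats.

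None of the 4 flavin monooxygenases tested passed either FDR rule with edgeR, and none was called by DESeq2, in any comparison. Fmo4 alone had an unadjusted p under 0.05, in both comparisons with control. Fmo1, which oxidises nitrogen and sulphur atoms of drugs and had the highest mean CPM of the 5 genes over all rats, was at 94.3, 141 and 161 CPM in control, 99.4, 171 and 129.5 CPM in model and 141, 151 and 213 CPM in HME rats, with overlap between all groups and log2 fold changes of 0.0014 (SE 0.249, FDR 0.998) in the model group against control and 0.34 (SE 0.232, FDR 0.804) in the HME group against the model group. Fmo4 was at 11.8, 14.4 and 17.0 CPM in control, 11.3, 8.86 and 10.3 CPM in model and 10.5, 10.4 and 11.8 CPM in HME livers, below all controls in both fructose-fed groups, with log2 fold changes of -0.50 (SE 0.195, FDR 0.319) and -0.41 (SE 0.162, FDR 0.163). Fmo5 varied within every group, at 186, 189 and 101 CPM in control, 17.2, 87.8 and 103 CPM in model and 141, 209 and 57.2 CPM in HME rats. Model rat 1 and HME rat 3 stood low in it, and its log2 fold change in the model group (-1.21 (SE 0.569, FDR 0.425)) did not pass.

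Summed over families, the levels follow the genes with the highest CPM in each family. The aldehyde oxidases summed to 681, 667 and 819.9 CPM in model and 1077, 1176 and 914 CPM in HME rats, and the Ces1 genes to 2630.2, 1961 and 2487 CPM and 3267, 2701 and 3039 CPM. In both families every HME rat was above every model rat. The alcohol dehydrogenases summed to 2006 ± 481 CPM (SD, n = 3) in control, 1337 ± 206 CPM in model and 1107 ± 229 CPM in HME rats, and the aldehyde dehydrogenases to 4780.4 ± 265, 5026 ± 155 and 5309 ± 165 CPM. All 59 members together summed to 13930.4, 17031 and 16413 CPM in control, 15768, 14335 and 17045 CPM in model and 17869.7, 18325.5 and 17516 CPM in HME rats. On this TMM scaling the HME rats lay above all others. As a share of total counts they did not. HME rat 3 was then at 1.59%, below control rats 2 and 3 (1.75% and 1.72%) and model rat 3 (1.69%). With 3 rats against 3, an exact permutation test cannot give a p below 0.1, so these sums were not tested.

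**Figure D4:**
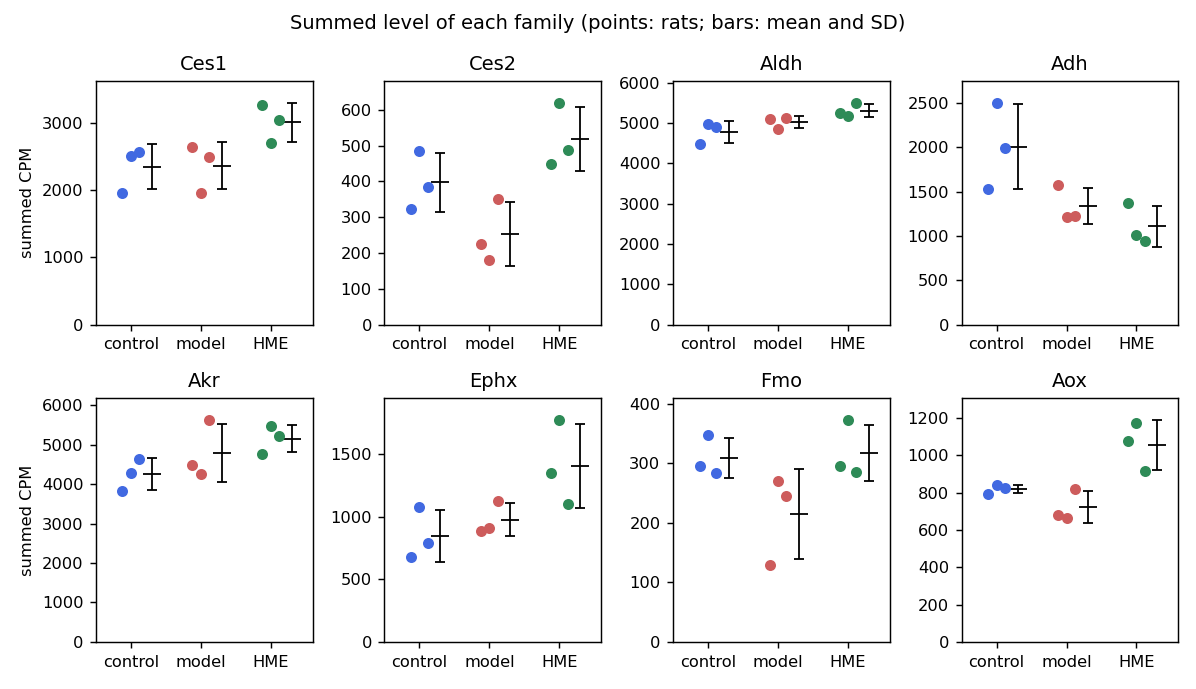
Summed CPM (y axis, linear from 0) of 8 families or subfamilies in each rat of the control, model and HME groups (x axis), with the mean and SD of each group beside the points. The Ces1, Ces2 and Aox sums of the 3 HME rats lie above those of the 3 model rats, and the Adh sums are highest in control rats 2 and 3.

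**Figure D5:**
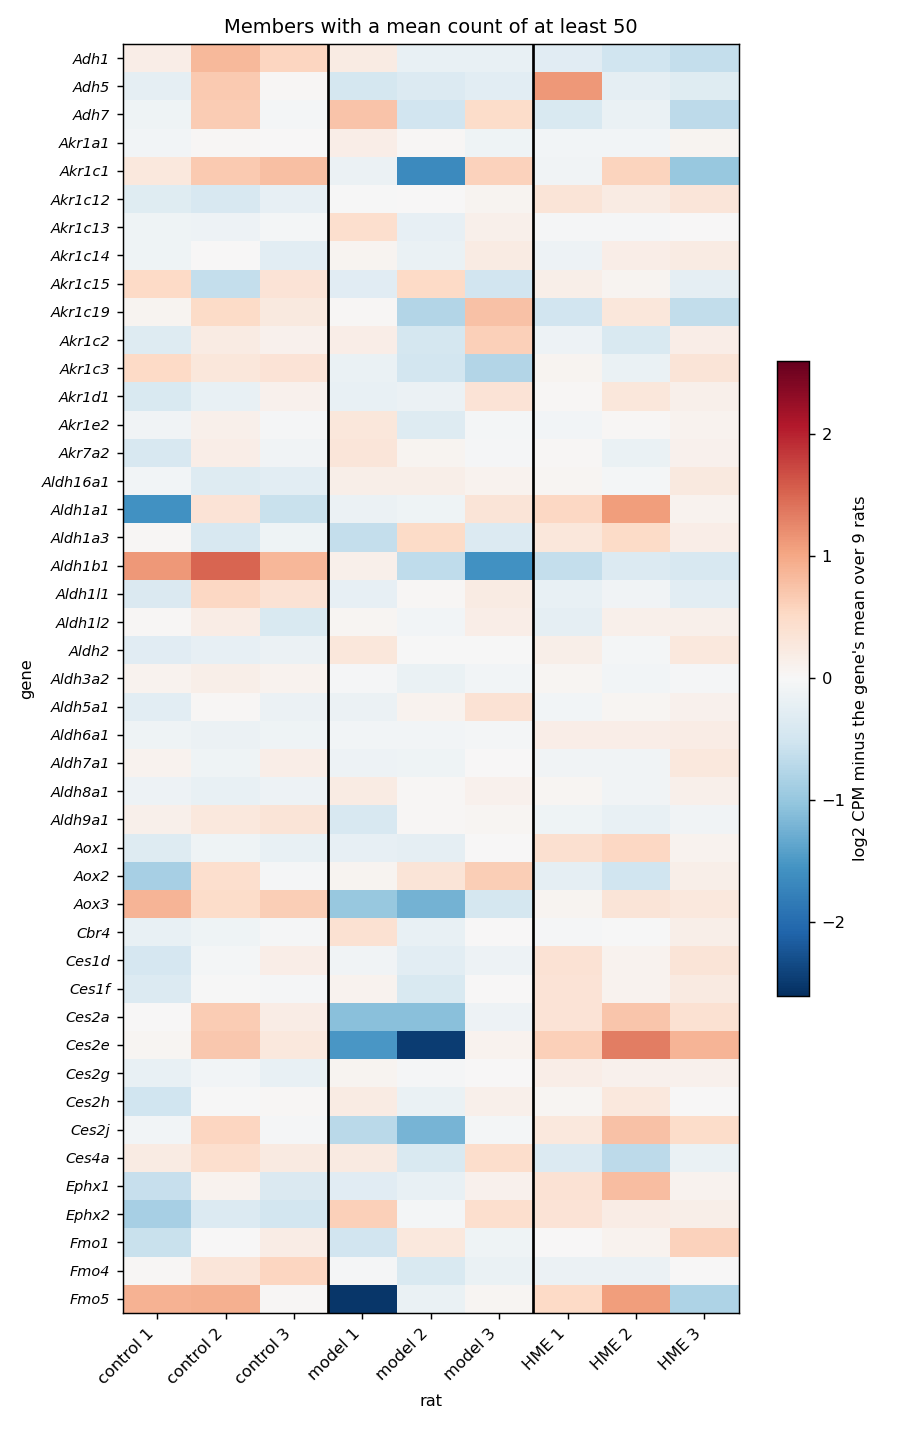
Log2 CPM of the 45 members with a mean count of at least 50 (y axis), minus the mean of each gene over the 9 rats, by rat (x axis) and on a colour scale from blue (below the mean) to red (above it). The most extreme value is -2.53, for Fmo5 in model rat 1. Ces2a, Ces2e and Ces2j are blue in model rats 1 and 2 and red in all HME rats, while Aldh1b1 is red in all control rats.

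Genes of neighbouring pathways were described with the same fits, from lists set up with earlier results of these data known. None of their genes passed the looser rule with edgeR in the model group against control, where 32 of 98 entries had an unadjusted p under 0.05 (32.7%, against 13.2% of all genes) and DESeq2 called 10 (10.2%, against 2.05%), or in the HME group against the model group, where these numbers were 16 of 97 (16.5%, against 8.02%) and 3 (3.09%, against 1.18%). The looser rule was passed by 6.36% of all genes in the HME group against control. There, of 13 tested serine esterases and lipases outside the carboxylesterases 1 rose and 2 fell (median log2 fold change -0.18). Mgll, the monoacylglycerol lipase, was at 52.7, 69.5 and 64.8 CPM in control and 36.8, 35.7 and 32.4 CPM in HME rats, a log2 fold change of -0.84 (SE 0.126, FDR 0.00679). Afmid, the formamidase of the kynurenine pathway, fell with -1.17 (SE 0.204, FDR 0.0145), and Pon3, a paraoxonase with lactonase activity, rose with 0.51 (SE 0.131, FDR 0.0476). The HME rats lay outside the control range in all 3.

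Of 23 tested retinoid and short-chain dehydrogenases, 3 rose and none fell in the HME group against control (median 0.16), namely Sdr42e1 (1.27 (SE 0.128, FDR 0.00106)), a short-chain dehydrogenase, Hsd11b1 (1.11 (SE 0.240, FDR 0.0328)), which regenerates active glucocorticoid, and Dhrs1 (0.56 (SE 0.115, FDR 0.0231)). Sdr42e1 was at 26.5, 34.0 and 25.9 CPM in control, 24.1, 93.0 and 44.9 CPM in model and 74.3, 64.9 and 70.1 CPM in HME rats, with model rat 2 above every other rat. Among 17 genes of other steps of alcohol, aldehyde and polyol oxidation, 2 rose and 2 fell (median 0.03). Agxt, the peroxisomal glyoxylate aminotransferase, rose with 0.84 (SE 0.109, FDR 0.00359) and Acss3, a mitochondrial acyl-CoA synthetase, with 0.66 (SE 0.169, FDR 0.0491). Khk, the fructokinase, fell with -0.75 (SE 0.162, FDR 0.0280) and Acss2, the cytosolic acetyl-CoA synthetase, with -1.16 (SE 0.221, FDR 0.0223). Maob, a monoamine oxidase, had an FDR under 0.05 with a log2 fold change just below the limit (0.50 (SE 0.108, FDR 0.0279)). Khk was at 346, 463 and 515 CPM in control, 645, 431 and 463 CPM in model and 271, 239 and 281 CPM in HME livers. In the HME group against the model group it did not pass (-0.95 (SE 0.185, FDR 0.0984)).

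Of 24 tested regulators of these families, Nr1d1, Srebf1 and Hlf passed the looser rule in the HME group against control, 1 of them higher and 2 lower (median 0.09). Nr1d1, a repressor of the circadian clock, was at 8.55, 2.02 and 5.65 CPM in control, 13.2, 81.5 and 27.3 CPM in model and 105, 101 and 84.4 CPM in HME rats (4.12 (SE 0.474, FDR 0.0111)). Lower were Srebf1, the lipogenic factor (-1.69 (SE 0.198, FDR 0.00244)), and Hlf, a PAR-domain factor of detoxification genes (-1.22 (SE 0.229, FDR 0.0169)). Arnt, the partner of the aryl hydrocarbon receptor, had an FDR under 0.05 with a log2 fold change below the limit (-0.46 (SE 0.116, FDR 0.0451)). The hour at which the livers were taken is not given in the sources used here. Its part in these values was not tested. Of the genes that mark lobule zones, 6 of 11 tested pericentral genes had an unadjusted p under 0.05 in the model group against control. That was 54.5%, against 13.2% of all genes, with 3 higher and 3 lower. DESeq2 called Cyp2e1 and Oat, both lower (18.2%, against 2.05% of all genes). Of 10 tested periportal genes 6 had such a p there (60%, against 13.2%), 2 higher and 4 lower. DESeq2 called Sds, Ass1, Cps1 and Gls2 lower and Hal higher (50%, against 2.05%). In the HME group against the model group such a p was seen in 2 of 10 and 3 of 10, against 8.02% of all genes. DESeq2 called 1 and 0 of them, against 1.18% of all genes. In the HME group against control 3 of 10 tested pericentral genes had an unadjusted p under 0.05 (30%, against 24.3% of all genes). DESeq2 called 1 of them (10%, against 6.09% of all genes). At the looser rule 0 of these 10 passed. Of 10 tested periportal genes Ass1, of the urea cycle, fell (-0.84 (SE 0.166, FDR 0.0202)). Among the 8 hepatocyte markers Apoa1 alone passed, higher in the HME group against control (0.81 (SE 0.160, FDR 0.0205)).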

How the data were processed

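The authors aligned the liver reads with HISAT2 2.0.5, used HTSeq 0.6.1 to count those on exons, strand ignored, and deposited raw counts per gene. The submitters' processing notes name the build Rnor_6.0, and the annotation release is not given in the sources used here. Without strand, overlapping and antisense genes share reads, and near-identical copies can lose or share them. The organism field of the labels says mouse, but the strain is the Wistar rat and gene identifiers are rat ones, so rat was assumed. A deposited table of 127 assembled transcripts was not used. The paper used DEGseq and DESeq, with the thresholds of the stricter rule. The looser rule was set here.

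Each comparison was fitted on its 6 libraries with edgeR 4.0.16 (R 4.3.3): filterByExpr, TMM (factors 0.866 to 1.13 over the 9 libraries), robust glmQLFit, two-sided glmQLFTest, Benjamini-Hochberg over all genes tested (FDR). SE is the absolute log2 fold change divided by the root of the F statistic. The scripts were tested on simulated data. Numbered samples were taken as separate rats, and if they were not, p-values measure technical spread only.

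The text names members with an FDR of at most 0.05 in any comparison, per comparison and direction the 5 with the largest fold change among those with a mean count of at least 50 and no overlap between groups, and the member with the highest CPM of each family. Aldh1a1, Aldh3b1, Aldh6a1, Aldh9a1, Akr1b7, Akr1c14, Aldh1a7, Aox2, Aox4, Ces1d, Ces2g, Ces2h, Ces2i, Fmo4 and Fmo5 were added after their values were seen. Of the other lists it names genes with an FDR of at most 0.05. The hepatocyte markers and the zone genes called by DESeq2 were named after their values were seen. The members and lists were chosen with earlier results of these data known. Some genes of these families and lists are not reported here. No rat genome was used here, so no positions or sequences are given.

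Alternatives were DESeq2 1.42.0, its size factors in edgeR, library size alone, no filter, at least 10 counts in every library, 1 fit over all 9 libraries, a block for the replicate number, other thresholds and each rat left out in turn. Counts of members without overlap under other scalings and without single rats were added after seeing the data.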

Additional observations from a re-analysis of the deposited data

How the results depend on the processing

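Every count is of members, first in the model group against control, then in the HME group against the model group, then in the HME group against control. At the stricter rule the counts were 0, 0 and 1, and they were 1, 0 and 4 without a filter on low counts, 3, 3 and 5 with DESeq2, 1, 0 and 0 with all 9 libraries in one fit, 0, 0 and 2 with library size alone, and 1, 1 and 7 at an FDR of at most 0.05. Over all genes these fits called 10, 17 and 187 at the stricter rule, 71, 38 and 489 without a filter, 256, 147 and 769 with DESeq2, 25, 20 and 113 with all 9 libraries, 8, 11 and 238 with library size alone, and 75, 57 and 804 at the FDR of 0.05. Other alternatives gave 0, 0 and 1, and leaving out each rat in turn gave 0, 0 and from 1 to 2, the 2 without control replicate 1, beside 0 to 10, 2 to 12 and 86 to 132 over all genes. At the looser rule the counts were 1, 1 and 7, and they were 2 and 2 without a filter in the comparisons with the model group, 5 and 4 there with DESeq2, 2, 2 and 4 with all 9 libraries, and 0 between the HME and model groups both with library size alone and with at least 10 counts in every library, a filter that left Ces2c untested. Over all genes the looser rule called 188 and 105 without a filter, 456 and 215 with DESeq2, 136, 85 and 491 with all 9 libraries, and 43 and 37 in the last pair. In the HME group against control it was passed by 4 higher and 3 lower members, and with library size alone by 1 higher and 5 lower. Leaving out a rat gave from 0 to 2, from 0 to 3 and from 2 to 6 members (15 to 113, 15 to 68 and 335 to 658 of all genes), with 0 without any control rat in the first, 3 without model replicate 3 in the second and 2 without HME replicate 1 in the third. The cause of these shifts was not tested, beside the smaller number of rats.

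Same-numbered rats of different groups had correlations of their deviations from -0.23 to -0.02, and differently numbered rats from -0.14 to 0.21. No sign of pairing by number was seen. Deviations within a group depend on each other, so these values cannot show that the samples were unpaired. With the replicate number as a block the stricter rule gave 0, 0 and 1 members (0, 7 and 104 of all genes) and the looser rule 0, 0 and 6 (1, 16 and 510).

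Members without overlap numbered 7, 12 and 14 higher and 8, 1 and 8 lower. With library size alone they numbered 2, 12 and 6 higher and 13, 1 and 11 lower, where all genes tested gave 669, 615 and 915 higher and 2097, 1137 and 3076 lower. With 1 rat left out, which can only raise such counts apart from the effect on the genes tested, they ran from 7 to 12, 12 to 18 and 14 to 20 higher and from 9 to 15, 1 to 6 and 8 to 10 lower, beside 1825 to 2295, 1184 to 1823 and 2399 to 2714 higher and 1653 to 2191, 1309 to 1858 and 2286 to 2637 lower over all genes tested.

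Fold changes of single genes under the alternatives were taken for the 25 members named by the rule above, and not for the other members. Among these 25, fold changes that changed sign were small in the main fit, and none passed a threshold before or after. With library size alone the log2 fold change against control turned to -0.043 for Adh7, -0.051 for Aldh1a3, -0.073 for Aox1, -0.12 for Ces1f and -0.10 for Fmo1 in the model group and to -0.056 for Akr7a2 in the HME group. With the block it was -0.0011 for Aldh1a3 in the model group against control. With single rats omitted, values in the model group against control ran from -0.16 to 0.42 for Adh7, from -0.026 to 0.33 for Akr1d1, from -0.34 to 0.27 for Aldh1a3, from -0.018 to 0.12 for Aox1, from -0.079 to 0.17 for Ces1f, from -0.34 to 0.046 for Ces4a and from -0.21 to 0.17 for Fmo1. With single rats omitted, values in the HME group against the model group ran from -0.12 to 0.030 for Aldh16a1, from -0.25 to 0.60 for Aldh1b1, from -0.041 to 0.14 for Aldh2, from -0.18 to 0.12 for Cbr4 and from -0.29 to 0.028 for Ephx2. With single rats omitted, values in the HME group against control ran from -0.50 to 0.46 for Adh5 and from -0.068 to 0.23 for Akr7a2.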
